A study of Mus musculus with 17 samples.

Results

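The 37 genes described here encode enzymes, transporters and regulators of fatty acid oxidation and ketone body metabolism, out of 35971 genes to which the transcripts of the series were summed. They were taken as a list of symbols and were sorted by role into 19 mitochondrial genes, 10 peroxisomal genes, 3 acyl-CoA synthetases, 4 ketone body enzymes and the regulator Ppara. The isomerase Eci2 was counted as mitochondrial by this sorting, and where its product lies in the cell was not tested. All 37 passed the filter on low counts. Long-chain fatty acids are activated to acyl-CoA, carried into mitochondria on carnitine and shortened there in repeated cycles of a dehydrogenase, a hydratase, a second dehydrogenase and a thiolase. Peroxisomes shorten very long and branched chains with their own enzymes and pass the products on. Proximal tubule cells of the kidney have little glycolysis and draw most of their ATP from this pathway, and the nuclear receptor PPARα, encoded by Ppara, switches on many of its genes.

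The 17 whole kidney RNA samples came from mice that all carry the Rosa26‐lsl‐PRCC‐TFE3 allele, a fusion oncogene behind a stop cassette that Cre recombinase removes. The 4 Cre(−) samples are from mice without Cre, and replicates 1 and 2 of them also carried the floxed Hif1α allele. In the other groups Cre is driven by the Cadherin 16 (KSP) promoter in kidney epithelial cells: 3 samples of PRCC‐TFE3 KI (KI), 4 of PRCC‐TFE3 KI/Hif1α KO (Hif1α KO), 3 of PRCC‐TFE3 KI/Hif2α KO (Hif2α KO) and 3 with both deletions, PRCC‐TFE3 KI/Hif1α/Hif2α DKO (DKO). The deletions are therefore confined by the promoter to the tubular epithelium, no Hif deletion without the fusion was sequenced here, and each sample is called a kidney below although the labels do not say that each came from its own mouse, and the labels give neither age nor which libraries were prepared together. Most library numbers run group by group, and the order of the libraries and the genotype cannot be told apart.

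Library totals ranged from 16504419 to 24668827 expected counts, the estimated reads per transcript that the authors deposited, and 3 counts equal 0.122 to 0.182 CPM, which covers counting error only. CPM here means counts divided by library sizes scaled with TMM factors, and TPM, which also corrects for transcript length, is used wherever levels of different genes are compared. Tests are edgeR's quasi-likelihood test in one fit of all libraries, with adjusted p from Benjamini-Hochberg over the 17011 genes tested and a threshold of 0.05. Hif1a had 162.6 to 198.4 CPM in Hif1α KO and 184.0 to 231.6 CPM in KI kidneys, and Epas1, which encodes HIF2α, had 136.5 to 149.3 CPM in Hif2α KO and 173.2 to 191.7 CPM in KI kidneys. These whole-gene values include reads outside the deleted part and reads from cells without Cre, and so do not check the deletions. Kidney markers were present throughout but differed by group: Cdh16, whose promoter drives Cre, had 1119.4 to 1221.5 CPM in Cre(−), 576.7 to 704.4 CPM in KI and 728.1 to 922.4 CPM in the kidneys with a deletion. In the KI group the second kidney stood apart in adipocyte transcripts, with 127.5 CPM of Adipoq against 5.12 and 8.56 CPM in the other two.

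In Cre(−) kidneys the mitochondrial genes held most of the transcripts of the list. Their summed level was 4891.5 ± 473 TPM (SD, n = 4), against 1498.9 ± 287 TPM for the peroxisomal genes, 1241.7 ± 180 TPM for the acyl-CoA synthetases and 1077.7 ± 82 TPM for the ketone enzymes. Acadm, the medium-chain acyl-CoA dehydrogenase, had the highest level of any member at 1672 ± 213 TPM. It was followed by Acsm2, a medium-chain acyl-CoA synthetase (827.9 ± 158 TPM), by Etfb, a subunit of the flavoprotein that takes electrons from the dehydrogenases (636.3 ± 80.6 TPM), and by Oxct1, the enzyme that activates ketone bodies for burning (539.7 ± 62.7 TPM). The spreads of Etfb and Oxct1 overlapped. These levels sum all transcripts of a gene, whether annotated as protein-coding or not. For Acadm, 702.4 TPM was on the protein-coding transcript Acadm-201. Another 717.1 and 216.9 TPM were on Acadm-207 and Acadm-210, annotated as retaining an intron, and its margin over the other members includes them. At the other end were Ppara with 16.48 ± 2.71 TPM and Abcd2, a peroxisomal transporter of very long chains, with 0.374 ± 0.149 TPM.

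In KI kidneys 35 of the 37 members were lower than in Cre(−) kidneys, 1 was higher and 1 did not pass the test, at a median log2 fold change of −1.55 against 0.03 over all genes tested. Of all genes tested 29.3% were called lower and 31.6% higher in this comparison. For the same 35 members every KI kidney lay below every Cre(−) kidney, as did 27.7% of all genes. By step, 18 of 19 mitochondrial genes fell (median −1.28), as did 9 of 10 peroxisomal genes (median −1.48), all 3 acyl-CoA synthetases (median −4.06), all 4 ketone enzymes (median −1.78) and Ppara (−1.89). The gene counted as mitochondrial that did not pass was Eci2, whose place in the cell was not tested. Within the steps the sizes were uneven: the peroxisomal genes that fell ranged from −4.58 to −0.56 and the mitochondrial genes from −2.91 to −0.50. In whole kidney RNA, fewer cells of a type and less RNA per cell cannot be told apart.

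**Figure D1:**
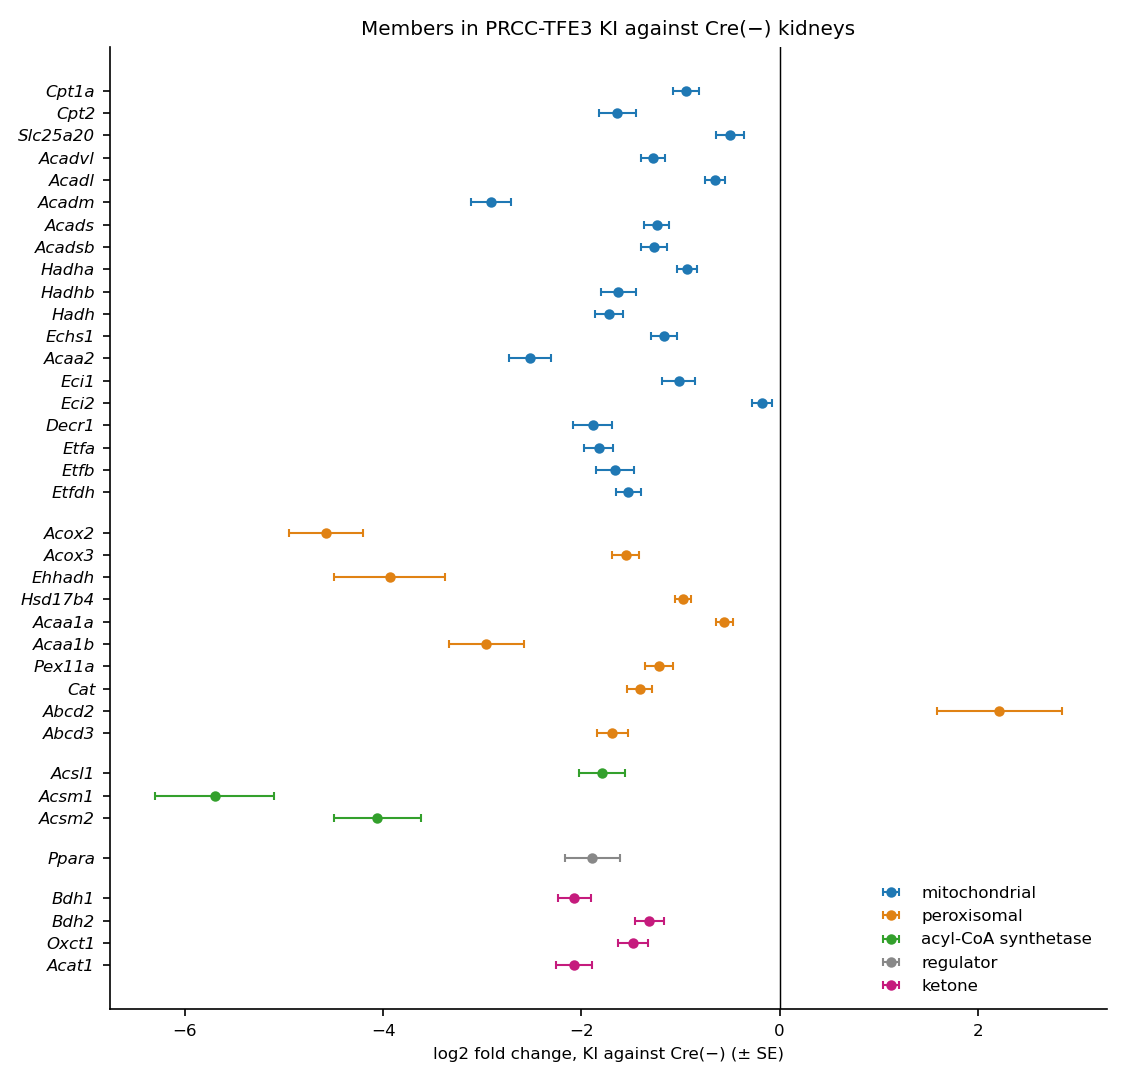
Log2 fold change of each of the 37 members in KI against Cre(−) kidneys on the horizontal axis, with bars for ± SE from the edgeR fit and colours for the step. The points of 36 members lie left of 0, with Acsm1, Acox2, Acsm2 and Ehhadh farthest out, and Abcd2 alone lies to the right.

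The summed levels show the same contrast by kidney. The mitochondrial sum was 5004.4, 5476.8, 4731.7 and 4353.0 TPM in the 4 Cre(−) kidneys and 1979.1, 2182.8 and 2047.1 TPM in the 3 KI kidneys, 42.3% of the Cre(−) mean. The peroxisomal sum in KI kidneys was 39.2% and the ketone sum 45.1% of the Cre(−) mean, whereas the acyl-CoA synthetase sum was 12.2%, from 989.6 to 1414.8 TPM down to 134.7 to 175.9 TPM. For each of the 4 sums the KI and Cre(−) kidneys did not overlap. The size of these differences depends on the unit. TPM is a share of all transcripts, and with limma on log2(TPM + 1) the median of all genes in KI against Cre(−) kidneys shifted to 0.38 and 78.2% of the genes called were higher, against 51.9% in the edgeR fit. The median of the members was then −1.07, or −1.45 relative to all genes, close to the −1.58 of the edgeR fit. On that scale Slc25a20, Acadl and Acaa1a no longer passed the test (adjusted p = 0.893, 0.162 and 0.456), and Eci2 changed sign.

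**Figure D2:**
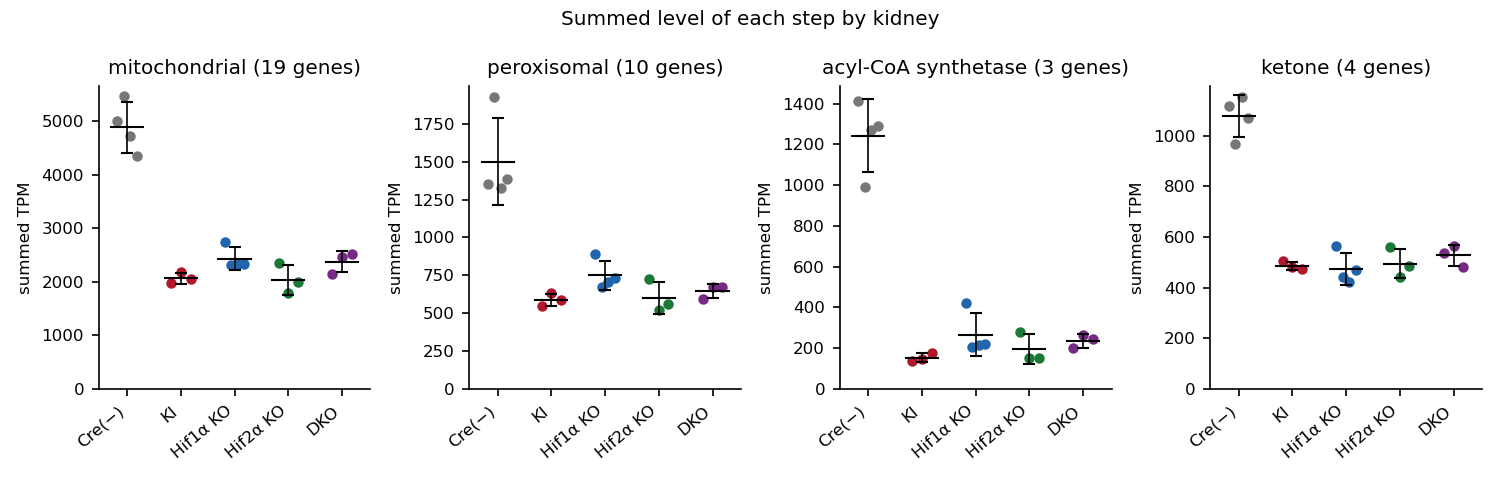
Summed TPM of the mitochondrial, peroxisomal, acyl-CoA synthetase and ketone genes in each of the 17 kidneys (points), with the mean and SD of each group as lines. All 4 sums are highest in the Cre(−) kidneys, and among the kidneys with the fusion the acyl-CoA synthetase sum of the first Hif1α KO kidney, 423.6 TPM, is the highest of its panel.

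Entry into mitochondria was affected unevenly. Cpt1a, which links long-chain fatty acids to carnitine at the outer membrane and is the controlled step, had 432.2, 443.4, 444.2 and 446.2 CPM in Cre(−) kidneys and 208.9, 215.2 and 264.1 CPM in KI kidneys (log2 fold change −0.94, SE 0.13, edgeR adjusted p = 1.38e-05). Cpt2, which releases the fatty acid again at the inner membrane, fell more, from 147.3 ± 14 to 47.35 ± 0.764 CPM (−1.64). Slc25a20, the carrier between them, fell least, from 57.42 ± 11 to 40.64 ± 2.54 CPM (−0.50, adjusted p = 0.00529). The 3 KI kidneys were alike for Cpt2, at 46.9 to 48.2 CPM.

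Among the acyl-CoA dehydrogenases, which take the first step of each cycle, Acadm stood out. Its level was 1924.4, 1598.9, 1424.0 and 1341.2 CPM in the Cre(−) kidneys, against 180.3, 211.2 and 236.2 CPM in KI kidneys, 7.51-fold lower (−2.91, SE 0.20, adjusted p = 1.52e-08). The very-long-chain enzyme Acadvl (−1.28), the short-chain enzyme Acads (−1.24) and the branched-chain enzyme Acadsb (−1.26) fell by similar amounts, and the long-chain enzyme Acadl fell by 0.65, from 357 ± 30.9 to 227.6 ± 4.35 CPM. In TPM summed over all transcripts, Acadm thus went from far above the other dehydrogenases, 1672 against 77.63 to 213.1, to 306.4 against 46.1 to 187.9. On the protein-coding transcript Acadm-201 alone it went from 702.4 to 128.0 TPM, while Acadl-201 had 213.1 and 187.0 TPM.

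The 5 genes of the later steps of the cycle were lower too, from −0.94 to −2.52. The trifunctional protein, which joins hydratase, dehydrogenase and thiolase for long chains, has α and β subunits encoded by Hadha (−0.94, from 408.8 ± 42.7 to 213.6 ± 7.54 CPM) and Hadhb (−1.63, from 256.3 ± 66.6 to 82.93 ± 5.39 CPM). Hadh (−1.72) and Echs1 (−1.17) do the same work on shorter chains. Acaa2, the thiolase that cuts acetyl-CoA off medium chains, fell most of these, from 225.6 to 336.6 CPM in Cre(−) down to 43.8 to 46.7 CPM in KI kidneys (−2.52, SE 0.21). Of the enzymes that prepare unsaturated fatty acids, the reductase Decr1 (−1.89) and the isomerase Eci1 (−1.02) fell. The isomerase Eci2 had 109.8, 114.2, 119.1 and 137.3 CPM in Cre(−) and 99.5, 105.0 and 114.0 CPM in KI kidneys, values that overlapped (−0.18, adjusted p = 0.147; 0.14 with limma on log2(TPM + 1)). The genes of electron transfer to the respiratory chain fell together, with Etfa at −1.82, Etfb at −1.66 and Etfdh at −1.52. Counts of Etfb and Hadhb are uncertain, since 39.6% and 16.7% of their 75-base words also occur in transcripts of Gm45233 and Gm13910.

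Among the peroxisomal genes, Acox2 and Ehhadh fell most. Acox2, the oxidase of branched chains and bile acid intermediates, had 152.6, 150.8, 125.0 and 146.7 CPM in Cre(−) kidneys and 7.36, 4.79 and 5.93 CPM in KI kidneys, 23.9-fold lower (−4.58, SE 0.38, adjusted p = 7.48e-08). Ehhadh, the bifunctional enzyme and a textbook PPARα target, had 826.0, 1313.5, 756.2 and 736.2 CPM against 43.6, 38.9 and 95.9 CPM, 15.3-fold lower (−3.93, SE 0.56, adjusted p = 1.94e-05). The second Cre(−) kidney was the highest for Ehhadh and the third KI kidney was above the other two.

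The related oxidase Acox3 (−1.55) and the bifunctional enzyme Hsd17b4 (−0.97) fell less. The thiolases differed: Acaa1b fell from 190.6 to 333.2 CPM down to 28.4 to 38.3 CPM (−2.96), and Acaa1a from 109.6 to 138.9 CPM down to 83.8 to 87.3 CPM (−0.56). They share sequence, 24.4% of the 75-base words of Acaa1b and 9.5% of those of Acaa1a, so that reads could have been divided wrongly between them. Catalase (Cat), which removes the hydrogen peroxide that the oxidases make, went from 974.4 ± 70.8 to 366.3 ± 57.5 CPM (−1.41), the transporter Abcd3 from 387.4 ± 66.1 to 120.2 ± 4.43 CPM (−1.69), and Pex11a, which promotes division of peroxisomes, from 62.99 ± 5.89 to 27.13 ± 3.55 CPM (−1.21).

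Abcd2 was the only member called higher, and this rested on a single kidney. The values were 2.33, 0.91, 1.39 and 1.96 CPM in Cre(−) and 2.87, 18.3 and 1.65 CPM in KI kidneys (2.22, adjusted p = 0.00648). Without the second KI kidney, the one with the most Adipoq, the difference was 0.47 and did not pass (adjusted p = 0.378), and with an adipocyte marker score as covariate it was 0.97 (adjusted p = 0.052).

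The acyl-CoA synthetases activate fatty acids to acyl-CoA, Acsl1 for long chains and Acsm1 and Acsm2 for medium chains. Acsm1 had 449.6, 332.1, 406.4 and 471.4 CPM in Cre(−) kidneys and 5.98, 5.12 and 12.8 CPM in KI kidneys, 52.0-fold lower and the farthest of all members (−5.70, SE 0.60, adjusted p = 8.68e-07). Acsm2, which neighbours Acsm1 on chromosome 7, had 1339.3 to 2061.4 CPM against 68.8 to 144.1 CPM (−4.06, SE 0.44). Acsl1 fell from 627.1 ± 68 to 180.7 ± 49.7 CPM (−1.79). Ppara had 40.2, 50.3, 50.3 and 40.6 CPM in Cre(−) and 7.42, 13.3 and 16.0 CPM in KI kidneys (−1.89, SE 0.28, adjusted p = 2.46e-05).

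The ketone enzymes fell by amounts within the range of the mitochondrial genes. Oxct1, which hands CoA to acetoacetate so that acetoacetate can be burned outside the liver, had 1765.7, 1356.4, 1648.8 and 1588.9 CPM in Cre(−) kidneys and 559.2, 536.1 and 612.0 CPM in KI kidneys (−1.48, SE 0.15, adjusted p = 7.1e-07). Bdh1, which interconverts β-hydroxybutyrate and acetoacetate in mitochondria, fell from 181.1 ± 21.8 to 43.09 ± 6.03 CPM, and the thiolase Acat1, which splits acetoacetyl-CoA and also serves in isoleucine breakdown, from 442.4 ± 33.2 to 105.3 ± 14.6 CPM (each −2.07). Bdh2, a cytosolic dehydrogenase of the same substrate family, fell from 138.8 ± 7.23 to 55.74 ± 14.7 CPM (−1.32).

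**Figure D3:**
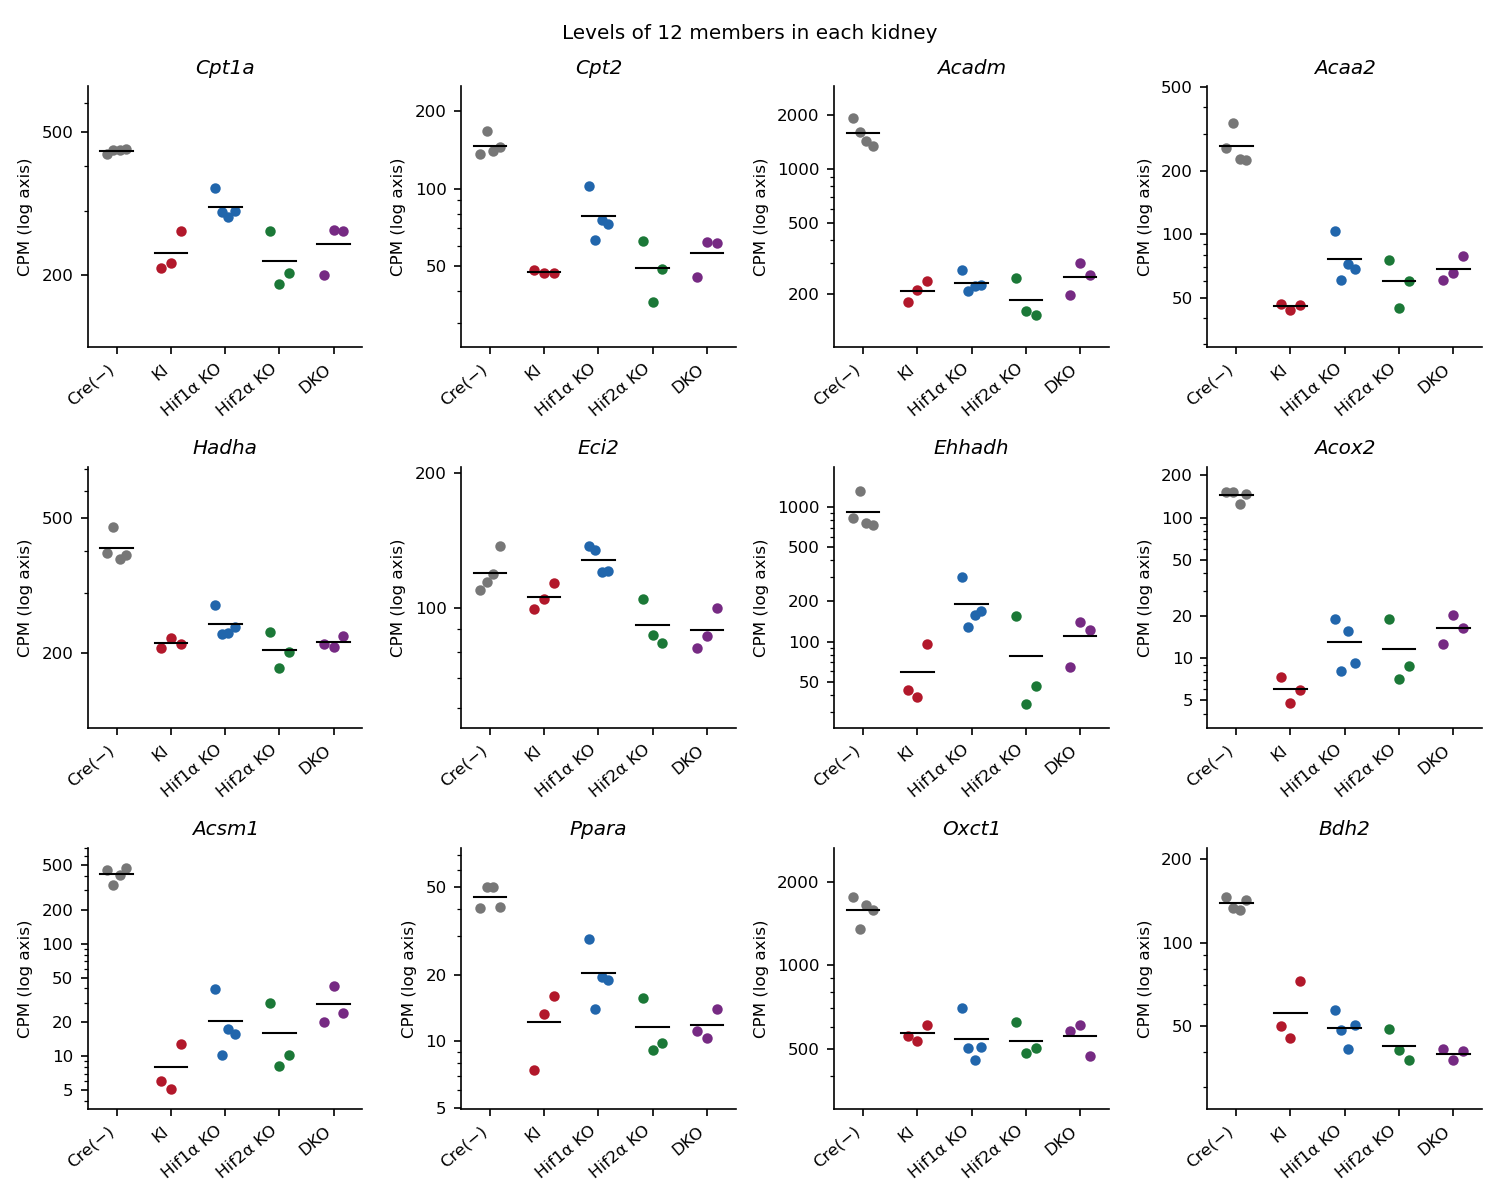
CPM of 12 members in each of the 17 kidneys on log axes, with points for kidneys, colours for the 5 groups and lines for group means. The Cre(−) points lie above all others except for Eci2, and in the panels of Cpt2 and Acaa2 the 4 Hif1α KO kidneys lie above the 3 KI kidneys.

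Other genes of the pathway, a list of 73 that are not members, moved in the same direction on balance in KI kidneys. Of these 54 were lower and 13 higher, beside 29.3% and 31.6% of all genes, at a median of −1.07. All 8 further mitochondrial genes and 19 of 20 further peroxisomal genes were lower. The 5 largest changes with a mean of at least 1 TPM were in Acsm5, a synthetase of the same family as Acsm1 (−4.95), in the fatty acid binding protein Fabp1 (−4.94), in Cyp4a14, which hydroxylates the far end of fatty acids (−4.41), in Cpt1b, the muscle form of the entry enzyme (−4.23), and in the transporter and synthetase Slc27a2 (−3.38). Fabp1 had 10.4, 47.9, 12.0 and 6.69 CPM in Cre(−) and only 0.269 to 1.03 CPM in KI kidneys, so its size is uncertain. Cyp4a14 had 1819.6 CPM in the second Cre(−) kidney and 575.8 to 657.6 CPM in the others, against 20.8 to 83.4 CPM in KI.

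Markers of tubule segments moved with the members. All 11 proximal tubule markers were lower in KI kidneys (median −4.66), and their summed level was 12115.1 to 13839.8 CPM in Cre(−), 1014.7 to 1166.2 in KI, 1224.4 to 2798.7 in Hif1α KO, 980.4 to 2387.6 in Hif2α KO and 1638.9 to 2259.8 CPM in DKO kidneys. All 4 markers of the thick ascending limb, 3 of the distal convoluted tubule and 4 of podocytes were lower too, and 4 of 5 of the collecting duct, while all 4 of tubular injury and 4 of fibroblasts were higher. With the proximal tubule score added as a covariate, 0 of the 37 members passed in KI against Cre(−) kidneys and their median was −0.33, while over all 17011 genes 171 were still called higher and 17 lower. Since Cre(−) and KI kidneys did not overlap in the markers, the score and the group cannot be told apart, and the part of the tubule cells in these differences was not tested.

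Deletion of Hif1α on top of the fusion came with higher levels of 3 members, Pex11a, Cpt2 and Acaa2. In Hif1α KO against KI kidneys these 3 of 37 passed upward and 0 downward, where 2.57% of all genes tested were called higher and 2.86% lower. At an unadjusted p under 0.05, 21 members were higher and 1 was lower (11.2% and 10.9% of all genes), and DESeq2 called 9 members and 782 of all 17011 genes higher. The log2 fold change was positive for 32 of the 37, against 49.6% of all genes, at a median of 0.34. For 19 members every Hif1α KO kidney lay above every KI kidney, against 8.96% of all genes: these were 13 mitochondrial and 6 peroxisomal genes, and no synthetase and no ketone enzyme. Eci2 was counted among the mitochondrial genes here. The medians by step were 0.27 for the mitochondrial, 0.47 for the peroxisomal, 1.10 for the synthetase and −0.002 for the ketone genes, and differences between steps were not tested.

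Cpt2, on chromosome 4 of GRCm38 from 107903981 to 107923610, had 102.2, 63.0, 75.8 and 73.1 CPM in Hif1α KO kidneys and 48.2, 46.9 and 47.0 CPM in KI kidneys (0.73, SE 0.18, adjusted p = 0.0297). Acaa2 had 103.5, 60.4, 72.1 and 68.2 CPM against 46.7, 43.8 and 46.0 CPM (0.74, SE 0.20, adjusted p = 0.0433). Neither gene's groups overlapped, and in both the first Hif1α KO kidney was the highest. The call of Cpt2 was lost without any one of Hif1α KO kidneys 1 and 3 or the 3 KI kidneys (adjusted p = 0.0632 to 0.0878), at differences of 0.58 to 0.74. That of Acaa2 was lost without any one of Hif1α KO kidneys 1, 3 and 4 or the 3 KI kidneys (adjusted p = 0.0539 to 0.118), at differences of 0.55 to 0.78. Next by p was the transporter Abcd3, with 172.4 ± 26.1 against 120.2 ± 4.43 CPM (0.52, adjusted p = 0.0552).

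The first Hif1α KO kidney was the highest of its group for 35 of the 37 members. It was also the highest for the proximal tubule markers, with 571.9 CPM of Slc34a1 against 163.9 to 289.3 CPM in the other three. Without it 1 member passed upward in place of 3, and the median of the members was 0.24. The count was also 1 without Hif1α KO kidney 3 or any one KI kidney, and 6 without Hif1α KO kidney 2. The genes called higher over the whole table moved too, from 438 with all kidneys to 142 without Hif1α KO kidney 1. They were 140 without Hif1α KO kidney 3, 139 to 304 without 1 KI kidney, and 574 without Hif1α KO kidney 2. Markers of several cell types were called higher in Hif1α KO than in KI kidneys: 5 of 11 of the proximal tubule, 2 of 4 of the thick ascending limb, 2 of 4 of fibroblasts, 1 of 5 of leukocytes and Cdh16. The fibroblast markers were divided, with 2 of 4 positive. With the proximal tubule score as covariate 0 members passed and their median was −0.01, and of all 17011 genes 22 were called higher and 18 lower. The part of these cell types in the difference was not tested.

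Pex11a was the member called most often among the kidneys with the fusion. It lies on the minus strand of chromosome 7 of GRCm38, from 79735957 to 79743131. It had 60.2, 41.4, 46.1 and 50.7 CPM in Hif1α KO kidneys, 23.5, 27.4 and 30.5 CPM in KI, 28.6, 21.0 and 26.4 CPM in Hif2α KO and 21.3, 22.4 and 27.4 CPM in DKO kidneys. The 4 Hif1α KO kidneys lay above all others with the fusion, the other 3 groups overlapped one another, and the highest Hif1α KO kidney reached into the Cre(−) range of 56.6 to 68.8 CPM. The difference was 0.87 (SE 0.14, adjusted p = 0.00659) from KI and 0.97 (SE 0.14, adjusted p = 0.0132) from Hif2α KO kidneys, and DKO differed from Hif1α KO by −1.06 (SE 0.14, adjusted p = 0.00464). Against KI the call held in 7 of 7 fits that left out 1 kidney. Against Hif2α KO it was lost without Hif2α KO kidney 2 or 3 (0.85 and 1.00, adjusted p = 0.0807 and 0.0508), and between DKO and Hif1α KO without DKO kidney 2 (−1.02, adjusted p = 0.0613). With the proximal tubule score as covariate the difference from KI was 0.58 and did not pass (adjusted p = 0.154).

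The bases before the annotated start are shown for Pex11a and Ehhadh, the members with the most calls and with the largest difference in Hif1α KO kidneys, and a stretch before one start of Acox2, the one member with a match to the PPAR repeat. They are RefSeq windows on GRCm38.p6, minus strand, at chr7:79743132-79743381, chr16:21787835-21788084 and chr14:8259055-8259084. Capitals mark matches, on either strand, to a relaxed PPAR direct repeat (NGGNCA, 1 further base, then AGGNCA), to the E-boxes CACGTG and CATGTG of the kind that TFE3 binds, and to the HIF core in its forms ACGTG, which overlaps CACGTG, and GCGTG.
Pex11a: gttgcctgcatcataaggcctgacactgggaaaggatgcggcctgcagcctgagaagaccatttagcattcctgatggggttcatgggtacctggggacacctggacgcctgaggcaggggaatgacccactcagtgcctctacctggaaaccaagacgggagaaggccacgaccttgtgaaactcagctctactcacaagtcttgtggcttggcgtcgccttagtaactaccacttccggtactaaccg
Ehhadh: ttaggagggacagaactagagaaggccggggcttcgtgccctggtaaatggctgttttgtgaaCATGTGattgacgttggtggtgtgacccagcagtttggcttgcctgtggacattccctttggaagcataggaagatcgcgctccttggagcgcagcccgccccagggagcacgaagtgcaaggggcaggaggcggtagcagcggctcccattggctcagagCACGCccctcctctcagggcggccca
Acox2: acaccaccTGGACACAGGACAcacccctca

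The Pex11a window holds none of these letters, the Ehhadh window holds CATGTG at position −187 and the reverse of GCGTG at −26 from the start, and the Acox2 stretch holds the relaxed direct repeat at −57. Promoter windows of 300 bases were matched for 32 of the 37 members. They gave 37 windows, as some genes have more than 1. The relaxed direct repeat is in 0.798% of all 32851 windows and in 2 of the 37, both of Acox2, CATGTG in 14.2% and in 1, CACGTG in 7.15% and in 0, ACGTG in 19.6% and in 3, and GCGTG in 32.4% and in 17. A match describes letters and is not a site, and no match says only that these letters are not in this window.

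Several members that were not called differed by more than those that were. Ehhadh had 302.4, 127.3, 157.9 and 168.5 CPM against 43.6, 38.9 and 95.9 CPM, with no overlap (1.67, SE 0.50, adjusted p = 0.0653). Acsm1 had 10.3 to 39.4 CPM against 5.12 to 12.8 CPM, which overlapped (1.37, adjusted p = 0.133). Acsm2 (1.10), Acox2 (1.09), which did not overlap, and Acaa1b (0.84), which did not either, were also positive, and Abcd2, with 18.3 CPM in the second KI kidney, was negative (−1.42), none past the threshold (adjusted p = 0.0809 to 0.181). Ppara had 14.0 to 29.3 CPM against 7.42 to 16.0 CPM, which also overlapped (0.74, adjusted p = 0.122). All 3 entry genes lay above KI in every Hif1α KO kidney: Cpt1a had 288.8 to 348.0 CPM (0.43, adjusted p = 0.0629) and Slc25a20 49.0 to 58.7 CPM (0.37, adjusted p = 0.129), the latter within the Cre(−) range of 48.4 to 72.1 CPM. The ketone enzymes differed by −0.07 for Oxct1, −0.18 for Bdh2, 0.07 for Bdh1 and 0.44 for Acat1, none past the threshold (adjusted p = 0.145 to 0.854).

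In Hif2α KO against KI kidneys 0 members passed in edgeR and 0 in DESeq2, where edgeR called 0.741% of all genes higher and 0.647% lower. At an unadjusted p under 0.05, 1 member was higher and 1 lower (10.2% and 8.98% of all genes). The log2 fold change was positive for 16 and negative for 21 members, against 48.9% of all genes positive, at a median of −0.05 against −0.01 over all genes. That median was −0.16 with 8 positive without the first Hif2α KO kidney, and 0.06 with 23 positive without the second. The 4 members with the smallest p were Acox2, with 19.1, 7.05 and 8.81 CPM against 7.36, 4.79 and 5.93 CPM (0.96, adjusted p = 0.174), Bdh2 (−0.40, adjusted p = 0.174), Slc25a20 (−0.28, adjusted p = 0.307) and Abcd2 (−1.26, adjusted p = 0.307; 0.49 without the second KI kidney). The first Hif2α KO kidney was the highest of its group for 34 of the 37 members and the second the lowest for 31, and in Slc34a1 they had 404.5 and 124.9 CPM.

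In DKO kidneys 2 members were called higher than in KI kidneys, Acox2 and Acsm1, and 1 lower, Bdh2, beside 6.53% and 6.19% of all genes. Acox2, on chromosome 14 from 8225511 to 8259353, had 12.5, 20.2 and 16.5 CPM against 7.36, 4.79 and 5.93 CPM (1.44, SE 0.36, adjusted p = 0.02). Acsm1, on chromosome 7 from 119607026 to 119662515, had 20.3, 42.3 and 24.1 CPM against 5.98, 5.12 and 12.8 CPM (1.86, SE 0.54, adjusted p = 0.0361). Bdh2, on chromosome 3 from 135281221 to 135304426, had 41.0, 37.5 and 40.4 CPM against 49.8, 45.0 and 72.5 CPM (−0.49, SE 0.15, adjusted p = 0.0466). The groups did not overlap for these genes, and all DKO values stayed far below the Cre(−) values of at least 125.0 CPM in Acox2 and 332.1 CPM in Acsm1. Each call was lost without some kidney: Acox2 without DKO kidney 2 or 3 or KI kidney 2 or 3 (adjusted p = 0.0584 to 0.0861), Acsm1 without DKO kidney 2 or 3 or KI kidney 1 or 2 (0.0694 to 0.15), and Bdh2 without any one DKO kidney or KI kidney 3 (0.0742 to 0.244). Without the third KI kidney, the difference in Bdh2 was −0.26.

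Next by p in DKO kidneys was Acaa2, with 60.5, 65.3 and 78.5 CPM, all above the KI kidneys (0.58, adjusted p = 0.0819). At an unadjusted p under 0.05, 3 members were higher and 2 lower (14.9% and 14.2% of all genes). Over the list 23 members were positive, against 49.5% of all genes, and the median was 0.10, or 0.05, 0.15 and 0.19 without KI kidney 1, 2 and 3. In every DKO kidney 12 members lay above all KI kidneys and 1 lay below, against 16.5% and 17.2% of all genes. The mitochondrial median was 0.10, the peroxisomal 0.14, the synthetase 0.81 and the ketone median 0.12. Called higher in DKO than in KI kidneys were 5 of 11 markers of the proximal tubule, 3 of 4 of the thick ascending limb, 1 of 3 of the distal convoluted tubule, 2 of 5 of the collecting duct, 2 of 4 of fibroblasts, 1 of 5 of leukocytes, 1 of 6 of adipocytes and Cdh16, while 1 of 4 of tubular injury was lower. The other adipocyte and fibroblast markers went down: only 1 of 6 for adipocytes (median −2.68) and 2 of 4 for fibroblasts were positive. With the proximal tubule score as covariate 0 members passed, 3 were positive and their median was −0.23, and of all 17011 genes 37 were called higher and 45 lower. The part of these cell types in the calls was not tested.

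**Figure D4:**
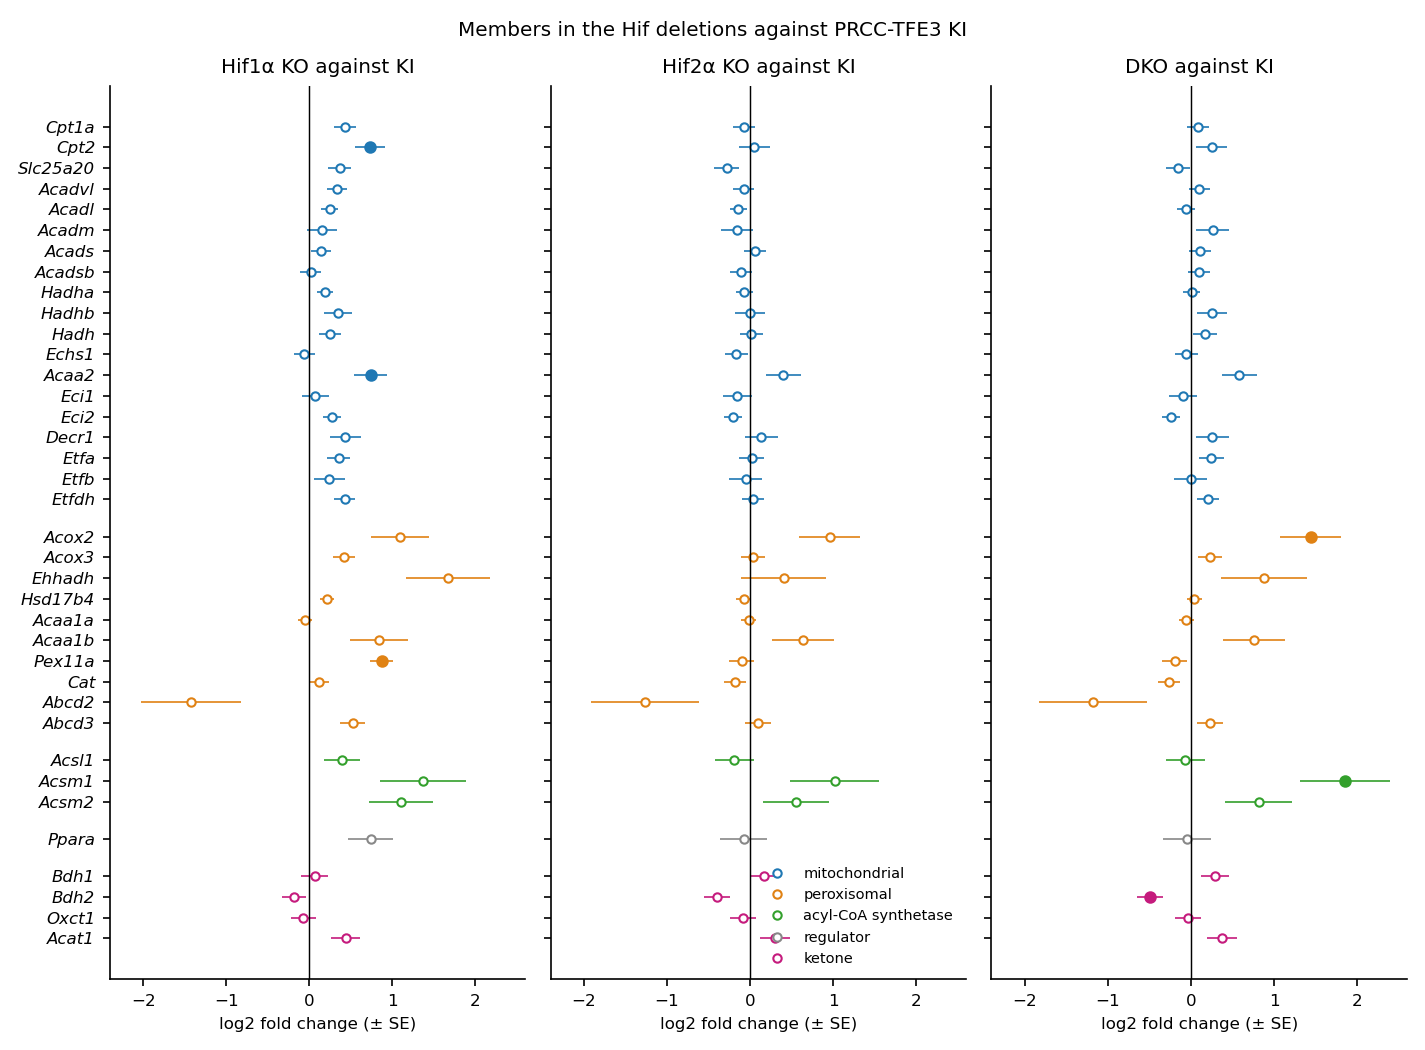
Log2 fold change of each member in Hif1α KO, Hif2α KO and DKO against KI kidneys (horizontal axes, bars ± SE), with filled points where the edgeR adjusted p is under 0.05. The 3 panels share the KI kidneys, filled points are Cpt2, Acaa2 and Pex11a for Hif1α KO, none for Hif2α KO, and Acox2, Acsm1 and Bdh2 for DKO.

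The comparisons with KI share its 3 kidneys, so the deletions were also compared with each other. In Hif1α KO against Hif2α KO kidneys Pex11a alone passed, where 0.329% of all genes were called higher and 0.0999% lower. At an unadjusted p under 0.05, 17 members were higher and 0 lower (7.99% and 6.96% of all genes), and DESeq2 called 8 members and 344 of all 17011 genes higher. In the edgeR fit 34 were positive, against 47.8% of all genes, and the median was 0.32, or 0.17 with 27 positive without Hif1α KO kidney 1, 0.21 without Hif2α KO kidney 2 and 0.50 without Hif2α KO kidney 1. Next by p were Slc25a20, with 58.7, 51.8, 49.0 and 50.4 CPM against 37.6, 29.9 and 32.7 CPM (0.65, adjusted p = 0.0537), Eci2, with 137.3, 135.1, 120.2 and 120.9 CPM against 105.0, 87.1 and 83.8 CPM (0.48, adjusted p = 0.0587), and Cpt1a (0.50, adjusted p = 0.0939). For 7 members every Hif1α KO kidney lay above every Hif2α KO kidney and for 0 below, against 8.31% and 6.75% of all genes. The number of members called was 10 without the first Hif2α KO kidney and 0 without the second or the third, while the genes called higher over the whole table went from 56 to 126, 0 and 3. Of the 11 proximal tubule markers 0 were called in this comparison (median 0.27), which says little where so few of all genes were called. With their score as covariate 2 members and 62 of all genes passed upward. In that fit 31 members were positive, and their median was 0.205 in place of 0.315. The part of the tubule cells in the difference was not tested.

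In DKO against Hif1α KO kidneys 2 members were lower, Pex11a and Eci2, beside 0.317% of all genes lower and 0.0882% higher. Eci2 had 81.5, 86.9 and 100.4 CPM in DKO kidneys, below every Hif1α KO kidney (−0.52, SE 0.10, adjusted p = 0.0457), a call that was lost without any one of the 7 kidneys (adjusted p = 0.069 to 0.277). Slc25a20 (−0.53, adjusted p = 0.114) and catalase (−0.39, adjusted p = 0.197) were next. At an unadjusted p under 0.05, 0 members were higher and 9 lower (6.56% and 6.41% of all genes). The log2 fold change was positive for 8 and negative for 29 of the 37 members, against 50.5% of all genes positive, at a median of −0.17. In every DKO kidney 14 members lay below all Hif1α KO kidneys and 0 above, against 8.54% and 7.48% of all genes. Without the first Hif1α KO kidney the median was −0.05. Again 0 of the 11 proximal tubule markers were called (median 0.06), and their summed levels in the 2 groups overlapped. With so few of all genes called, a count of 0 among 11 says little. The part of the tubule cells in the difference was not tested.

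Whether the effect of the double deletion differed from the sum of the single ones was tested with an interaction term, a test chosen after the data were seen. In edgeR 0 of 17011 genes passed at an adjusted p of 0.05, and 1013 (5.95%) had an unadjusted p under 0.05; no other tool was run. Among the members Pex11a had the smallest p, with an interaction of −0.96 (SE 0.21, unadjusted p = 0.000306, adjusted p = 0.289).

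Of the other 73 pathway genes, Hif1α KO kidneys had 7 called higher and 1 called lower when compared with KI, beside 2.57% and 2.86% of all genes. The higher ones were Angptl4, an inhibitor of lipoprotein lipase (2.34), Pdk4, a kinase that shuts off pyruvate dehydrogenase (1.33), Vnn1, a pantetheinase (1.11), Fabp3 (1.07), the thioesterase Acot2 (0.89), the mitochondrial carrier Ucp2 (0.71) and the peroxisomal membrane protein Pxmp4 (0.69), with edgeR adjusted p of 0.021 to 0.0293. Aacs, which activates acetoacetate in the cytosol for lipid synthesis, was lower (−0.64, adjusted p = 0.0346). Aacs had 44.2 to 51.5 CPM in Cre(−) and 194.9 to 295.7 CPM in KI kidneys, unlike Oxct1, and was also lower than in KI in Hif2α KO (−0.86, adjusted p = 0.0312) and DKO kidneys (−1.22, adjusted p = 0.00169).

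For Pdk4 and Angptl4, too, the 4 Hif1α KO kidneys lay above all others with the fusion. Pdk4 had 702.3, 744.9, 457.1 and 664.0 CPM in Hif1α KO kidneys, against 187.6 to 371.5 CPM in KI, 167.9 to 242.1 CPM in Hif2α KO, 107.9 to 210.7 CPM in DKO and 36.1 to 80.3 CPM in Cre(−) kidneys. Angptl4 had 248.9, 181.7, 134.2 and 149.1 CPM in Hif1α KO kidneys and at most 68.5 CPM in any other kidney with the fusion. Unlike Pex11a, Pdk4 was higher in KI than in Cre(−) kidneys (1.98, adjusted p = 4.71e-05). In Hif1α KO against Hif2α KO kidneys Angptl4 (2.65), Pdk4 (1.68), Acot1 (1.07), Acot12 (1.04) and Acot2 (0.96) were higher, with adjusted p of 0.0346 to 0.0454, and 0 of the 73 were lower. Of all genes 0.329% were called higher and 0.0999% lower there. In DKO against Hif1α KO kidneys Pdk4 (−2.15), Acot1 (−1.07), Acot2 (−1.02), the lipid droplet protein Plin2 (−0.87) and the synthetase Acsl4 (−0.48) were lower, with adjusted p of 0.0112 to 0.0457, and 0 of the 73 were higher. Of all genes 0.317% were called lower and 0.0882% higher there.

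**Figure D5:**
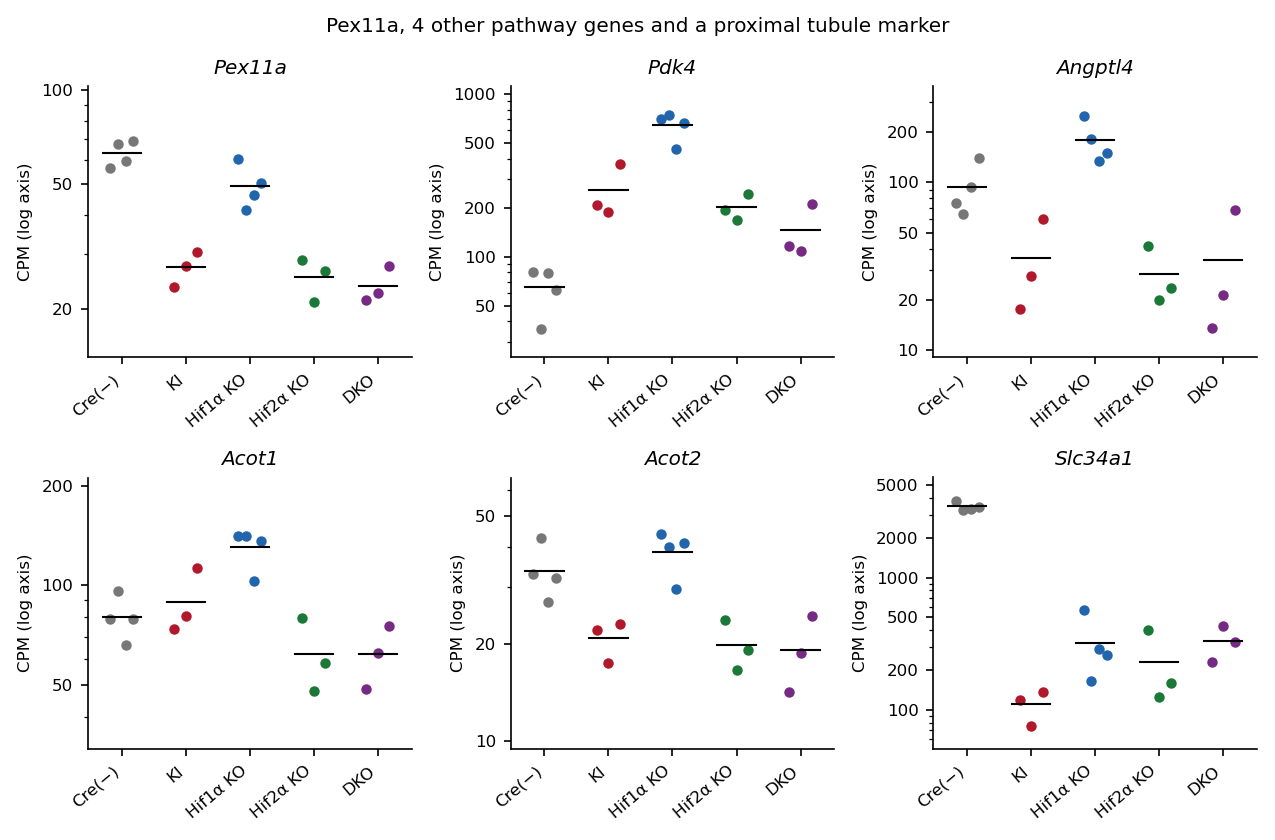
CPM of Pex11a, 4 other pathway genes and the proximal tubule marker Slc34a1 in each of the 17 kidneys on log axes, with lines for group means. Hif1α KO kidneys lie above the Hif2α KO and DKO kidneys in the panels of Pex11a, Pdk4, Angptl4, Acot1 and Acot2, while in that of Slc34a1 the 3 groups overlap.

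In DKO against KI kidneys 3 of the 73 were called higher and 3 lower, beside 6.53% and 6.19% of all genes. Acsm5 (1.67), Fabp3 (1.09) and Slc27a2 (1.07) were higher, with adjusted p of 0.0194 to 0.0298. Besides Aacs, the carnitine acetyltransferase Crat (−0.70, adjusted p = 0.00594) and Slc27a1 (−0.81, adjusted p = 0.0294) were lower. Crat had 277.3 to 381.7 CPM in KI and 188.1 to 235.0 CPM in DKO kidneys, whereas the values of Slc27a1 overlapped and its highest, 211.6 CPM, was in the second KI kidney.

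No deletion brought the list back to the Cre(−) range. All kidneys lay below all Cre(−) kidneys for 33 of the 37 members in Hif1α KO, 35 in KI, 36 in Hif2α KO and 36 in DKO kidneys, beside 27.3%, 27.7%, 28.8% and 28.5% of all genes. The exceptions in Hif1α KO kidneys were Slc25a20, Eci2, Pex11a and Abcd2. Acadm shows the distance: its mean was 1572 ± 258 CPM in Cre(−) kidneys and 209.2 ± 28, 232.5 ± 28.9, 186.9 ± 51.3 and 250.8 ± 49.4 CPM in KI, Hif1α KO, Hif2α KO and DKO kidneys, and Oxct1 stayed between 536.1 and 569.1 CPM on average in those 4 groups. Against KI, the summed TPM in Hif1α KO kidneys was 1.18 times as high for the mitochondrial, 1.27 for the peroxisomal, 1.75 for the synthetase and 0.976 for the ketone genes. For the mitochondrial and peroxisomal sums the Hif1α KO and KI kidneys did not overlap, at 2308.7 to 2748.1 against 1979.1 to 2182.8 TPM and 671.9 to 889.2 against 548.5 to 629.6 TPM, while the ketone sums overlapped, at 423.0 to 564.1 against 474.2 to 504.6 TPM. The synthetase sum was 423.6 TPM in the first Hif1α KO kidney and 206.1, 214.3 and 219.9 TPM in the others, against 134.7 to 175.9 TPM in KI. Its ratio of 1.75 thus leans on that first kidney.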

How the data were processed

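Kidney RNA of 17 samples was measured as stranded mRNA libraries with single-end 75-nt reads. The authors deposited expected counts and TPM per transcript, made with STAR and RSEM after trimming. The methods name the human assembly hg38, with annotation from hg38 or GRCm38, but the files list mouse transcripts, and GRCm38 (GENCODE M21) was used here for names and positions. Of 119353 transcripts 97.8% were matched, and the matched ones held 99.04% to 99.24% of each library's counts. Sums per gene were rounded to whole numbers.

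The test was edgeR 4.0.16 (R 4.3.3), quasi-likelihood, with TMM factors, filterByExpr at a minimum count of 10 (18960 genes left out), one coefficient per group and Benjamini-Hochberg adjustment over 17011 genes. All tests are two-sided. The labels number the samples of a group but do not say that each came from its own mouse, and p-values then measure only the spread between these samples, which may be technical. The fit was tested on simulated data. Words of 75 bases shared between genes were counted in the transcripts of the annotation. Python 3.11.15 with pandas 2.3.3 was used for the sums and tables, and matplotlib 3.10.9 for plots.

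The members, the other pathway genes and the marker lists were chosen with earlier results of these data known. All 37 members are described; other members than those called are named in a comparison for the 4 smallest p, and other pathway genes where called among kidneys with the fusion or among the 5 largest changes in KI. In Hif1α KO against KI, Ehhadh, Acsm1, Acsm2, Acox2, Acaa1b, Abcd2, Ppara, Cpt1a, Slc25a20 and the ketone enzymes were named after their values were seen, as were Acadm and Oxct1 for the distance to Cre(−). The test of the interaction of the 2 deletions was also chosen after seeing the data. A few genes of the pathway are not reported here. Alternatives were DESeq2 (also only its size factors), no filter, only the 2 groups compared, the replicate block, limma 3.58.1 on log2(TPM + 1) and log2(TPM + 0.1), marker scores as covariates, either pair of Cre(−) samples, summed CPM and each library left out.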

Additional observations from a re-analysis of the deposited data

Results flagged for a closer look

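In the 2 groups of 4 kidneys, 6 of 74 sets of values had 1 kidney whose gap to the next, as a share of the range, exceeded Dixon's 95% critical value for 4 samples; chance alone flags about 1 in 20. The first Hif1α KO kidney was the high value for Acads (71.2 CPM), Etfa (97.4 CPM) and Acsm2 (417.5 CPM). The second Cre(−) kidney was the high value for Eci1 (131.9 CPM), Decr1 (331.1 CPM) and Ehhadh (1313.5 CPM). Without the first Hif1α KO kidney the median of the members in Hif1α KO against KI fell to 0.24 from 0.34, and without the second Cre(−) kidney that in KI against Cre(−) was −1.55, as with it.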

How the results depend on the processing

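Over the 37 members in KI against Cre(−) kidneys, 35 were called lower, 32 with limma on log2(TPM + 1) or log2(TPM + 0.1), 0 with the proximal tubule score as covariate, and 35 with each other alternative run (35 to 35 with 1 kidney left out); 1 was called higher, and 0 with either marker score (0 to 1 with 1 kidney left out). Of all genes 4981 were called lower in the main fit, 2458 and 2466 with limma on the 2 scales, and 17 with the proximal tubule score. With the proximal tubule score Etfb (0.12), Acaa1b (0.86), Eci2 (0.31), Ppara (0.12), Ehhadh (1.12), Cpt1a (0.18), Cpt2 (0.25), Slc25a20 (0.057) and Abcd2 (−0.800) changed sign. Eci2 also did with limma on log2(TPM + 1) (0.139) and log2(TPM + 0.1) (0.140), and Abcd2 in Hif2α KO against KI without KI kidney 2 (0.488; −1.738 to 0.488 with 1 kidney left out). Because the markers and the groups move together, the cause was not tested.

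Against KI, 3 members were higher in Hif1α KO: 9 with DESeq2, 1 with only the 2 groups compared, the replicate block or the adipocyte score, 0 with the proximal tubule score, and 1 to 6 with 1 kidney left out. Of all genes 438 were called higher in the main fit, 782 with DESeq2 and 112 with only the 2 groups. The replicate block gave 237, the adipocyte score 268, the proximal tubule score 22, and 1 kidney left out 139 to 574. In DKO 2 were higher: 4 with only the 2 groups, 1 with limma on either scale, 0 with the proximal tubule score, and 0 to 2 with 1 kidney left out. With DESeq2 Acaa2 passed as well. Of all genes 1111 were called higher in the main fit, 1447 with DESeq2 and 526 with only the 2 groups. Limma on the 2 scales gave 1206 and 1126, the proximal tubule score 37, and 1 kidney left out 369 to 1165. In DKO against KI 1 member was lower, and 0 with no filter, only the 2 groups, the replicate block, limma on either scale or either marker score (0 to 1 with 1 kidney left out). Of all genes 1053 were called lower in the main fit, 794 with no filter, 502 with only the 2 groups and 798 with the replicate block. Limma on the 2 scales gave 520 and 463, the adipocyte score 937, the proximal tubule score 45, and 1 kidney left out 353 to 1126. In Hif1α KO against Hif2α KO 1 was higher: 8 with DESeq2, 2 with only the 2 groups or the proximal tubule score, and 0 to 10 with 1 kidney left out. Of all genes 56 were called higher in the main fit and 344 with DESeq2. Only the 2 groups gave 108, the proximal tubule score 62, and 1 kidney left out 0 to 126. In DKO against Hif1α KO 2 were lower: 1 with no filter, only the 2 groups, the replicate block, limma on either scale or the adipocyte score, and 0 to 1 with 1 kidney left out. Of all genes 54 were called lower in the main fit, 44 with no filter, 129 with only the 2 groups and 10 with the replicate block. Limma on the 2 scales gave 24 and 15, the adipocyte score 30, and 1 kidney left out 4 to 24. The cause was not tested. No pairing of kidneys by replicate number was evident: 4 of 31 pairs with the same number had a correlation of deviations over 0.1 (−0.223 to 0.249). Some pairs with different numbers also exceeded 0.1, such as Hif2α KO kidney 1 with DKO kidney 2 (0.246). Whether libraries were prepared together was not tested.

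Summed as CPM in place of TPM, the KI over Cre(−) ratios were 0.34 (mitochondrial), 0.274 (peroxisomal), 0.105 (synthetase) and 0.329 (ketone), and DKO over KI was 1.31 for the synthetases. Limma on log2(TPM + 1) raised the share of called genes that were higher from 51.3% to 69.9% in DKO against KI, from 53.4% to 70.6% in Hif2α KO against KI and from 21.7% to 67.6% in DKO against Hif1α KO, and lowered it from 76.7% to 58.6% in Hif1α KO against Hif2α KO. A sex-linked covariate was not run, since the score of Y-linked genes did not vary enough within any group. Ddx3y had 0 to 4 and Eif2s3y 0 to 2 counts in all libraries. The 4 Y-linked genes in the data, 2 of them tested, summed to 8.2 to 20.1 CPM per kidney. Among the members depth limits only Abcd2, at 0.91 to 18.3 CPM.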
